A study of Homo sapiens with 4 samples.

Results

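The genes described here encode the hnRNP proteins, the SR proteins and the SF3A, SF3B, U2AF, TRA2 and LUC7L3 splicing factors. They were taken by symbol from the platform gene table, and 1 pseudogene, HNRNPKP3, was left out. The set held 46 of the 18774 genes on the array: 21 hnRNP genes, 11 SR protein genes, 9 SF3A and SF3B genes and 5 others (U2AF1, U2AF2, TRA2A, TRA2B and LUC7L3). They were read by 57 probes, and for 10 genes with more than 1 probe the brightest was used. Of the 46, 44 had a mean signal above the filter on dim genes, the median of all probes (75.6 intensity units). HNRNPH2, with 64.8 and 62.4 in the MIF siRNA arrays 1# and 2# against 68.6 (control RNA) and 65.9 (untreated), and HNRNPCL1, with 63.3 and 70.3 against 59.8 and 66.2, lay under it. HNRNPA1L2 lay just above it, with signals of 83.9 to 90.4.

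The study depleted MIF, the gene of the cytokine macrophage migration inhibitory factor, by RNA interference in HEK293, a line derived from embryonic human kidney. Illumina bead arrays, 4 in all, read RNA at 24 h: 2 arrays of cells transfected with MIF siRNA (1# and 2#), 1 of cells transfected with a control RNA and 1 of untreated cells. Doses of 50 and 100 pmol/ml are given for MIF siRNA in the series text. The label of 2# gives 50 pmol/ml, that of 1# gives no dose, and neither the siRNA sequences nor the number of separate cultures are stated. The p-values therefore measure only the spread between these 4 arrays, and their number limits the precision of every value. In bulk RNA of this kind, fewer cells of a type and less RNA per cell cannot be told apart.

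Splicing removes introns from newly made RNA. The U2AF dimer binds the end of an intron, and SF3A and SF3B then anchor the U2 particle at the branch point. SR proteins bind exons through RNA recognition motifs and recruit this machinery through their arginine- and serine-rich tails, whereas many hnRNP proteins coat the nascent transcript and often favour exon skipping. Several genes of both families limit their own output through exons that bring in a stop codon and send the transcript to decay. An array probe reads transcript and not protein.

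MIF itself had a normalized signal of 11614 in 1# and 17040 in 2#, against 22463 (control RNA) and 21908 (untreated). Both MIF siRNA arrays were below both control arrays, and the log2 difference of -0.66 ± 0.18 (SE) had an adjusted p of 0.0743 in limma. The keratin genes KRT8 and KRT18 and the neurofilament gene NEFL, which HEK293 cells are known to express, had signals between 2504 and 18466, while the kidney gene PAX2 lay under the filter (67.6 to 74.6). The 7 markers of this list summed to 24284 in 1# and 32978 in 2#, against 32027 (control RNA) and 33973 (untreated), so 1# alone was low. EYA1, a kidney development gene of the list, read 222.3 and 151.9 against 103.5 and 112.4, a log2 difference of 0.77. Of the markers of blood cells, CD3E, CD14 and HBB lay under the filter. PTPRC lay just above it, with 88.8 and 86.5 against 96.6 and 95.4. The sum of the 4 blood markers on the array was 290.0 to 309.7 in the MIF siRNA arrays and 300.5 to 300.7 in the controls. Above the filter were 4 of 5 fibroblast, 2 of 3 endothelial and 1 of 3 hepatocyte markers. The fibroblast markers summed to 833.4 to 839.1 in the MIF siRNA arrays and 900.1 to 901.8 in the controls, mostly COL1A1 and LUM. By gene that list was split, since PDGFRA read 117.9 and 83.4 against 68.8 and 69.2 and DCN differed by 0.10. The sums were, for the endothelial markers, 399.9 to 447.2 in the MIF siRNA arrays and 395.2 to 421.6 in the controls, and for the hepatocyte markers 218.0 to 224.3 and 214.1 to 220.6. Their part in the results was not tested. The spread between arrays was uneven. Over all 13755 genes above the filter, the SD of the log2 difference was 0.23 between 1# and 2# and 0.13 between control RNA and untreated cells. Array 1# stood apart from the controls, with an SD of 0.397 from control RNA and 0.368 from untreated cells, whereas 2# was about as close to untreated cells (0.223) and control RNA (0.248) as to 1#.

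Setting the MIF siRNA arrays against both controls asked which splicing factor transcripts differed in cells with less MIF. More of them were lower than higher. In 23 of the 44 genes (52.3%) both MIF siRNA arrays lay below both control arrays, where 28.7% of all genes did so. In 7 genes (15.9%) both lay above, against 32.7% of all genes, and in 14 the arrays overlapped. The median log2 difference of the 44 genes was -0.11, with -0.10 in 1# and -0.12 in 2#, and that of all genes was 0.01. The sizes were small, from -0.63 for HNRNPA3 to 0.47 for SRSF6. Fewer pairs are left when an array is omitted, so more genes of every kind pass. Without control RNA 10 members were higher, without untreated cells 14, without 1# 12 and without 2# 13, against 41.1% to 43.3% of all genes. Between 23 and 26 members were lower with any 1 array left out, against 36.5% to 41.2% of all genes.

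None of the 44 genes passed the test across all genes. In limma with Benjamini-Hochberg adjustment 0 of them had an adjusted p under 0.05, where 2.49% of all genes did, and the smallest adjusted p among them was 0.0524 (HNRNPH3). The 342 genes that passed all lay at the edge of the threshold, with a smallest adjusted p of 0.0499, and choosing the brightest probe on normalized in place of deposited signal gave 0 genes. At an unadjusted p under 0.05 there were 12 lower and 7 higher members (background 12.7% lower and 17.1% higher). Without 1# the fit called 6 members (13.6%) and 1547 genes (11.2%), and without 2# 17 members (38.6%) and 4634 genes (33.7%), the lone MIF siRNA array being assumed to vary like the control pair. Without control RNA or without untreated cells it called 0 genes. Against control RNA alone, in a fit of group means with 1 residual degree of freedom, 0 of 13755 genes passed (0%), 12 members were lower and 4 higher at an unadjusted p under 0.05 (background 7.13% and 9.66%), and the smallest adjusted p was 0.252.

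**Figure D1:**
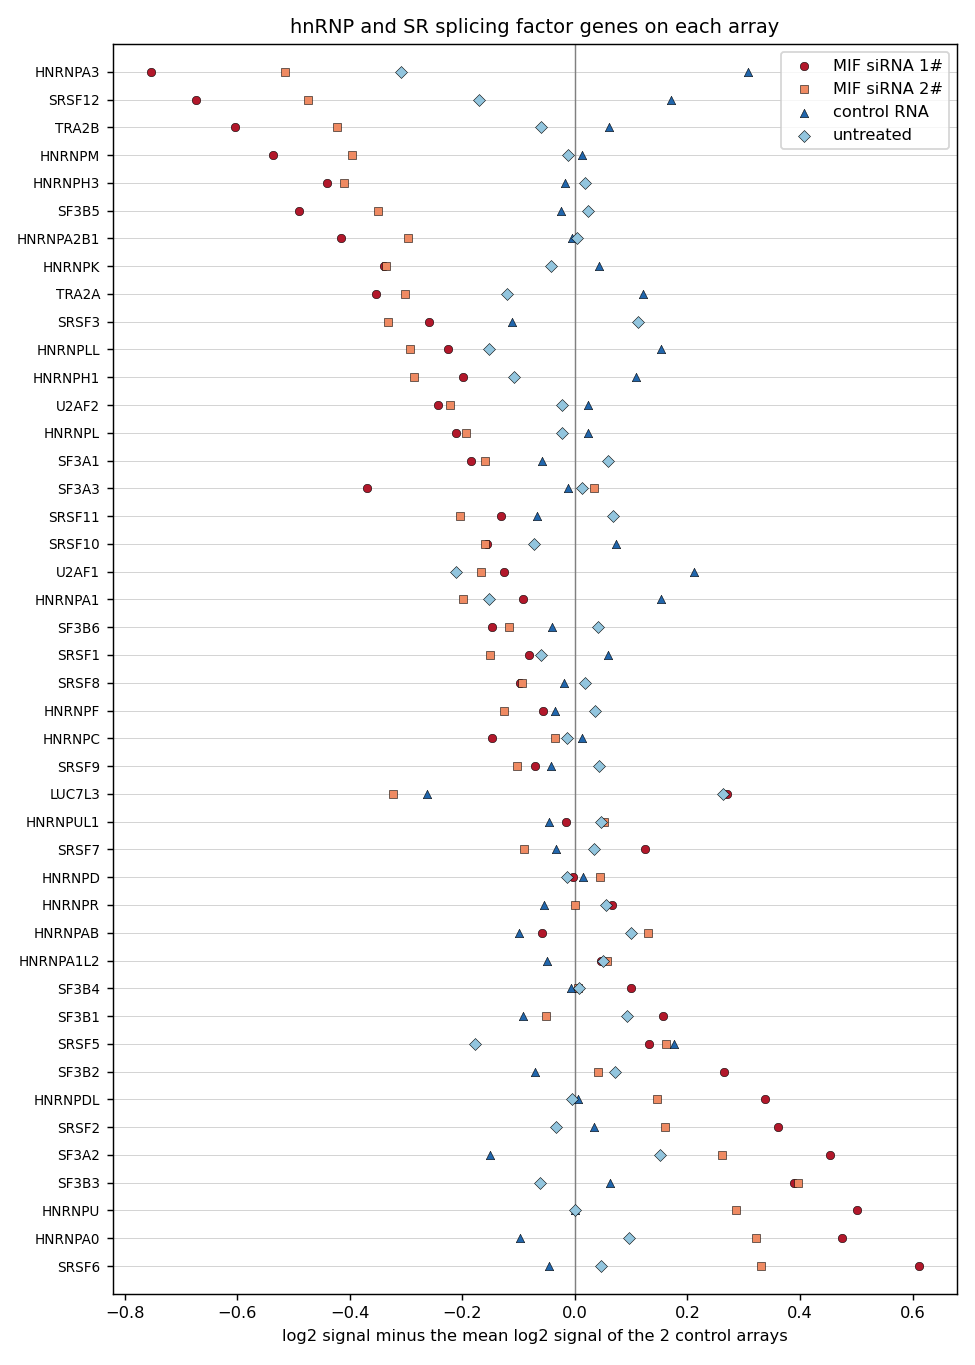
Log2 signal of the 44 splicing factor genes above the filter on each of the 4 arrays, minus the mean log2 signal of the control RNA and untreated arrays; 1 point is 1 array, and genes are ordered by the mean of the MIF siRNA arrays. In 23 genes both MIF siRNA points lie left of both control points and in 7 right of both, and the points of HNRNPA3, U2AF1 and SRSF5 show control RNA well above untreated cells.

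The lower hnRNP genes included several of the most studied members of the family. HNRNPM, which binds GU-rich sequences and promotes exon skipping, had signals of 9184 and 10116 in 1# and 2#, against 13431 (control RNA) and 13199 (untreated). The control arrays were nearly alike and both MIF siRNA arrays lay well under them, a log2 difference of -0.47 ± 0.09 (SE, 1.38-fold, adjusted p 0.0525). A second HNRNPM probe, annotated to another transcript, was dimmer and also had both MIF siRNA arrays lowest, with 122.0 and 139.2 against 243.1 and 207.5. HNRNPH3, a relative of the G-tract binding proteins HNRNPH1 and HNRNPF, had 385.0 and 393.1 against 516.6 (control RNA) and 529.0 (untreated). There was no overlap, and its adjusted p was the smallest of the set (-0.43 ± 0.08, adjusted p 0.0524). With arrays scaled only by their medians the HNRNPH3 difference was -0.23 (adjusted p 0.122 in limma). In that setting the median of all genes was 0.09, in place of 0.01. For HNRNPH1 itself the signals were 3745 and 3529 against 4638 and 3987, so that the MIF siRNA arrays lay close under the untreated one. HNRNPF, at 476.2 and 453.9 against 482.9 and 507.8, stood within 1.01-fold in its closest pair, and its difference of -0.09 turned to 0.11 when arrays were scaled only by their medians.

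HNRNPK, a KH-domain protein that binds C-rich sequences, had 1383 and 1387 in the MIF siRNA arrays, against 1803 (control RNA) and 1699 (untreated). The MIF siRNA arrays were nearly equal, and the difference from the controls was -0.34 ± 0.09 (SE, adjusted p 0.0679). HNRNPL, which binds CA repeats, was lower by less, with 447.5 and 452.9 against 526.5 and 509.9. The HNRNPL difference was -0.20, and -0.01 with arrays scaled only by their medians, where all genes had a median of 0.09. Its relative HNRNPLL, known for its part in CD45 splicing in T cells, had 112.4 and 107.2 against 146.1 and 118.2, where untreated cells lay closer to the MIF siRNA arrays than to control RNA.

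The hnRNP A/B genes did not share a direction. HNRNPA2B1, whose proteins bind UAG-containing motifs, had 2596 and 2821 in 1# and 2#, against 3453 (control RNA) and 3474 (untreated), a log2 difference of -0.36 ± 0.09 (SE, adjusted p 0.0664) with the control arrays almost equal. Its second probe gave -0.21, also with both MIF siRNA arrays lowest. HNRNPA3 had the largest mean difference of the set, with 672.7 and 793.5 against 1404 (control RNA) and 915.7 (untreated) (-0.63 ± 0.20, adjusted p 0.104). Control RNA stood far above the other arrays: the difference was -0.94 from control RNA alone and -0.33 from untreated cells alone. HNRNPA0, a single-exon member of the same group, stood on the other side. Its signals were 5819 and 5236 in the MIF siRNA arrays, against 3915 (control RNA) and 4477 (untreated) (0.40 ± 0.11, adjusted p 0.0746).

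HNRNPA1, the best known splicing silencer of the family, depended on the probe. The brighter probe read 1838 and 1707 in 1# and 2#, against 2178 (control RNA) and 1762 (untreated), so the arrays overlapped and only control RNA stood apart. Its other probe, ILMN_1663447, read 950.0 and 1284 against 1934 and 1498, with both MIF siRNA arrays lowest and a log2 difference of -0.62. The HNRNPA1 probes are annotated to different transcripts. HNRNPA1 also has many near-identical copies in the genome, and the array does not show whether the probes separate them. In HNRNPAB the probes also differed: the brighter one read 14740 and 16799 against 14328 and 16461 and overlapped, while the other read 4115 and 4604 against 5416 and 5796, a difference of -0.36 with no overlap. The mean of both HNRNPAB probes differed by -0.16, with an adjusted p of 0.336 in limma.

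HNRNPU, the nuclear matrix protein SAF-A that also acts on U2 particle maturation, was higher. Its signals were 428.7 and 369.1 in 1# and 2#, against 302.8 (control RNA) and 302.6 (untreated). The control arrays were almost equal, and the difference was 0.39 ± 0.10 (SE, adjusted p 0.0704). HNRNPDL, which regulates its own splicing, had 1742 and 1524 against 1383 and 1373 (0.24 ± 0.10, adjusted p 0.165), and its second probe overlapped. The remaining hnRNP genes lay close to the controls. HNRNPC, the poly-U binding core protein, stood at 12133 and 13107 against 13556 and 13308. HNRNPD, HNRNPR and HNRNPUL1 overlapped, with log2 differences of 0.02, 0.03 and 0.02. By class, 10 of 19 hnRNP genes were lower in all 4 pairs and 3 higher (median -0.09). These were 52.6% and 15.8%, against 28.7% and 32.7% of all genes. With arrays scaled only by their medians the class had 8 lower and 6 higher, a setting in which 17.4% of all genes were lower and 46.8% higher.

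Promoter sequences are shown for HNRNPM, HNRNPH3 and TRA2B, the lower genes with the widest smallest gap to a control array, and for HNRNPU and SRSF6, the higher genes with the widest gap among those with a sequence. Each is the 250 bases before the annotated start in GRCh38.p14 from RefSeq, written 5′ to 3′ on the strand of the gene. Capitals mark matches, on either strand, to an E-box, an ETS motif, a CCAAT box or a GC box, whose letters are given with the counts.
HNRNPM (chr19:8444725-8444974, plus strand): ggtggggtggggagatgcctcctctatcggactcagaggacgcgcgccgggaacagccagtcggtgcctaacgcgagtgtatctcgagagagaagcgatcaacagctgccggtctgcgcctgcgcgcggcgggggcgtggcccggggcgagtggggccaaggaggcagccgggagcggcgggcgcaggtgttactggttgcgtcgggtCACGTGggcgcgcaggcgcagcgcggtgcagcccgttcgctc
HNRNPH3 (chr10:68331443-68331692, plus strand): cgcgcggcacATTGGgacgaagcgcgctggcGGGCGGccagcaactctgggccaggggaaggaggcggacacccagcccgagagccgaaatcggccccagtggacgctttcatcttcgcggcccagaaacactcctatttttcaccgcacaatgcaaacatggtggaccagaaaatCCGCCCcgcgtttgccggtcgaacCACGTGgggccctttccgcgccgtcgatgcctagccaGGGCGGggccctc
TRA2B (chr3:185938015-185938264, minus strand): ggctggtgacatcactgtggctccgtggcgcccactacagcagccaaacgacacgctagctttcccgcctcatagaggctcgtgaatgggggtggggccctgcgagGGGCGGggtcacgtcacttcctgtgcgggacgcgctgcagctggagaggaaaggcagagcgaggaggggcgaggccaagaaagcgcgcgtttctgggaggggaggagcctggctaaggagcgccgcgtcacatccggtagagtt
HNRNPU (chr1:244864544-244864793, minus strand): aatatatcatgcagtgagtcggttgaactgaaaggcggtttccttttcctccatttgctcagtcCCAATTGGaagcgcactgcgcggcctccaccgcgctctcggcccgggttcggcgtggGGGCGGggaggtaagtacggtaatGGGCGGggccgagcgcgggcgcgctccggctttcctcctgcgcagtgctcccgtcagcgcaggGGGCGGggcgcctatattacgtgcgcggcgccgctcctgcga
SRSF6 (chr20:43457646-43457895, plus strand): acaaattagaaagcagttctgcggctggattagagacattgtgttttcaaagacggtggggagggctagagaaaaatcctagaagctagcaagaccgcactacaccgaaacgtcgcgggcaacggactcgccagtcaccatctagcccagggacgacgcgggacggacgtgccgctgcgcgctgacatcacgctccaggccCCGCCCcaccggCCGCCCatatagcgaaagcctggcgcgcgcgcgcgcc
The HNRNPM and HNRNPH3 windows each hold an E-box, the HNRNPH3 window with 3 GC boxes and a CCAAT match beside it. TRA2B holds a GC box only, and the HNRNPU window holds 3 GC boxes and a pair of overlapping CCAAT matches on opposite strands. SRSF6 holds 2 GC boxes close to its start.

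Such windows were matched for 42 of the 46 genes; HNRNPA1, SF3B3, SRSF2 and TRA2A were not matched. The E-box, searched as CACGTG, stood in 7 of the 42 (16.7%), against 8.48% of the windows of 11132 measured genes and 6.34% of all 35116. The ETS motif, searched as CCGGAAG, stood in 11 (26.2%, against 14% of measured genes and 8.52% of all). The CCAAT box, named by its letters, stood in 17 windows (40.5%, against 34.8% of measured genes and 32% of all). The GC box, searched as GGGCGG, was held by 28 windows (66.7%, against 63.1% of measured genes and 42.6% of all). Among 22 lower and 5 higher genes with a window, an E-box stood in 3 and 1, an ETS motif in 5 and 1, a CCAAT box in 10 and 2, and a GC box in 13 and 5. These are counts of letters, and binding was not measured.

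The SR protein genes also lay on both sides. SRSF6 had the largest positive difference of all members, with 9002 and 7408 in 1# and 2#, against 5705 (control RNA) and 6084 (untreated). Array 1# stood further out than 2#, and the difference was 0.47 ± 0.12 (SE, 1.39-fold, adjusted p 0.0663). Its second probe read 1833 and 1233 against 1100 and 1237, where only 1# was clear of the controls. SRSF2, which binds exonic enhancers and is mutated in myeloid malignancies, had 7417 and 6454 against 5911 and 5641 (0.26 ± 0.10, adjusted p 0.151).

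SRSF12, a less studied member of the family, had the largest negative difference among SR genes, at 229.3 and 263.1 against 411.4 (control RNA) and 324.8 (untreated) (-0.57 ± 0.14, 1.49-fold, adjusted p 0.0636). Both controls were above both MIF siRNA arrays but differed from each other by 1.27-fold. SRSF3, the smallest classical SR protein and also an adaptor for RNA export, had 2387 and 2269 against 2642 and 3087 (-0.30 ± 0.11, adjusted p 0.127). SRSF1, the founding member, had 4701 and 4477 against 5182 and 4772, and SRSF10, which acts as a repressor when dephosphorylated, 3282 and 3273 against 3847 and 3477. Both were below the controls by no more than 1.06-fold in their closest pair.

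Smaller differences were found in the rest of the SR family. SRSF8, SRSF9 and SRSF11 were lower in all 4 pairs, with log2 differences of -0.10, -0.09 and -0.17. SRSF9, known from splice site selection in vitro, stood at 14242 and 13921 against 14524 and 15399. SRSF7, a close relative of SRSF3 that shuttles to the cytoplasm, overlapped, with 4356 and 3753 against 3900 and 4090. SRSF5 separated in another way: untreated cells were low at 3383, while 1#, 2# and control RNA had 4189, 4277 and 4323. In all, 7 of 11 SR genes were lower in all 4 pairs and 2 higher (median -0.10). These were 63.6% and 18.2%, against 28.7% and 32.7% of all genes.

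The factors that recognise the end of the intron and the branch point were split within their complexes. U2AF2, the large subunit that binds the polypyrimidine tract, had 2767 and 2810 in the MIF siRNA arrays, against 3328 (control RNA) and 3226 (untreated), close agreement within each pair and a difference of -0.23 ± 0.08 (SE, adjusted p 0.127). U2AF1, the small subunit that contacts the AG dinucleotide, had 2437 and 2371 against 3080 and 2299, so that control RNA alone was high. For SF3B5, a small structural subunit of SF3B, the signals were 6014 and 6633 against 8311 and 8593 (-0.42 ± 0.09, adjusted p 0.0569), without overlap. SF3B3, a WD40-type scaffold of the same complex, went the other way with 3832 and 3850 against 3055 (control RNA) and 2800 (untreated) (0.39 ± 0.09, adjusted p 0.0594). The MIF siRNA arrays agreed for SF3B3, and it was the only higher member at least 0.32 apart on the log2 scale in every pair.

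SF3B1, the subunit that clamps the branch point and is often mutated in myelodysplasia, overlapped with its brightest probe, at 2003 and 1733 in 1# and 2# against 1684 and 1916. A second SF3B1 probe, ILMN_1674780, annotated to another transcript, read 753.4 and 784.5 against 906.6 and 901.4, a difference of -0.23 without overlap, and the third lay under the filter. SF3B2, which binds near the branch point, read 23005 and 19692 against 18226 and 20122, with 1# alone standing high. SF3B4 overlapped too, with a difference of 0.05, and SF3B6, which sits near the branch point adenosine, was lower at 9101 and 9298 against 9798 and 10370. In the SF3A trimer, SF3A2 had 3678 and 3216 against 2417 (control RNA) and 2982 (untreated) (0.36 ± 0.13, adjusted p 0.133). SF3A1 had 149.8 and 152.4 against 163.5 and 177.4. For SF3A3 only 1# was low, at 3584, while 2# had 4742 and the controls 4593 and 4671. Of the 9 SF3 genes 3 were lower in all 4 pairs and 2 higher (median 0.05). These were 33.3% and 22.2%, against 28.7% and 32.7% of all genes, so the lower share was near that of all genes.

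Both TRA2 genes were lower. TRA2B, a sequence-specific activator of exons with GAA-rich enhancers, had 799.0 and 906.8 in 1# and 2#, against 1267 (control RNA) and 1165 (untreated). All 4 pairs were at least 1.29-fold apart, and the difference was -0.51 ± 0.10 (SE, 1.43-fold, adjusted p 0.053). Its paralogue TRA2A had 797.2 and 825.5 against 1107 and 936.1 (-0.33 ± 0.11, adjusted p 0.109). LUC7L3, a relative of a yeast U1 particle protein, followed neither grouping: 1# and untreated cells had 189.5 and 188.6, and 2# and control RNA had 125.6 and 131.0.

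**Figure D2:**
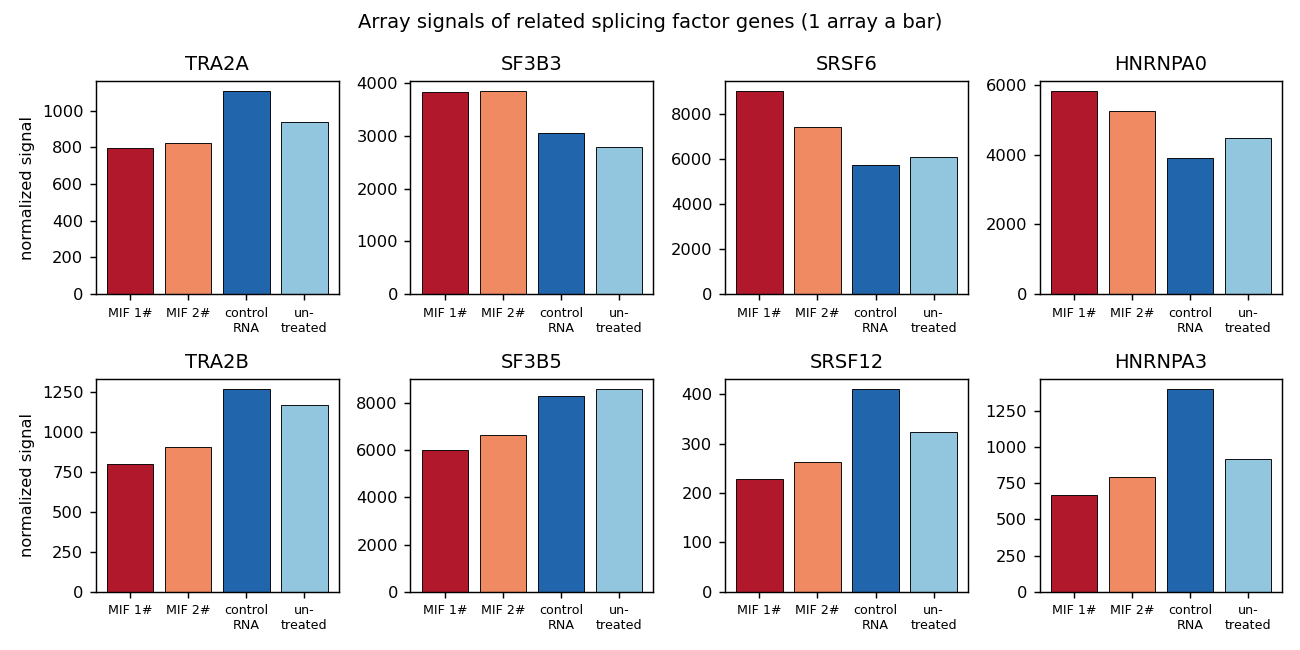
Normalized signal (linear intensity) of 8 splicing factor genes on each array, 1 bar an array, in pairs of related genes or subunits: MIF siRNA 1# and 2# on the left of each panel, control RNA and untreated cells on the right. TRA2A and TRA2B were both lower in the MIF siRNA arrays, while SF3B3, SRSF6 and HNRNPA0 were higher and SF3B5, SRSF12 and HNRNPA3 lower.

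By size, no member was 1.5-fold apart in all 4 pairs, where 0.4% of all genes were so lower and 0.742% higher (at 2-fold 0 members, against 0.0218% and 0.0727%). Without the untreated array, where fewer pairs are left, 2 members, HNRNPA3 and SRSF12, passed that rule. The shares of all genes above belong to 4 pairs, and none is given for that setting. Both genes were higher in control RNA than in untreated cells, by 1.53-fold and 1.27-fold. At a log2 difference of 0.32 in every pair 4 members were lower (HNRNPH3, HNRNPM, TRA2B and SF3B5, background 3.44%) and 1 higher (SF3B3, background 4.94%). The smallest gap between a MIF siRNA and a control array was wider than both the 1# to 2# and the control RNA to untreated difference in 9 lower members (20.5%, background 11.5%): HNRNPH3, HNRNPM, TRA2B, SF3B5, HNRNPK, HNRNPA2B1, U2AF2, HNRNPL and SRSF8. The same held for 4 higher members (9.09%, background 12.9%): SF3B3, HNRNPU, SRSF6 and HNRNPA0. For the other separated members the gap was no wider than the larger of those differences. This rule was chosen after the values were seen. With arrays scaled only by their medians, HNRNPL and SRSF8 each differed by only -0.01, where all genes had a median of 0.09.

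Control RNA and untreated cells had 1 array each, so treatment and array cannot be told apart and no test was made. HNRNPA3 was 1.53-fold, U2AF1 1.34-fold, SRSF5 1.28-fold and SRSF12 1.27-fold higher in control RNA. These 4 members, past 0.32 on the log2 scale, were 9.09% of the 44, against 1.19% of all genes. LUC7L3 was 1.44-fold lower in control RNA (2.27% of members, background 0.931%), with SF3A2 and SRSF3 next at 1.23-fold and 1.17-fold. The SD of the log2 difference over the members was 0.21, against 0.13 over all genes, and the median was -0.01. The arrays lay within 1.1-fold in 28 members (63.6%), where 71.6% of all genes did. For HNRNPA3 and SRSF12 the direction in MIF siRNA was opposite to that in control RNA, each set against untreated cells, and for U2AF1 both MIF siRNA arrays were level with untreated cells.

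Between 1# and 2# fewer members passed that size. Past 0.32 on the log2 scale, only LUC7L3 was higher in 1# (1.51-fold, background 7.37%) and only SF3A3 lower (1.32-fold, background 6.46%). In 27 of 44 members (61.4%) the arrays lay within 1.1-fold, where 54.6% of all genes did, and the SD of the log2 difference was 0.17 over members and 0.23 over all genes. Behind those values SRSF6 and SF3B2 were 1.22-fold and 1.17-fold higher in 1#, and HNRNPA3 and SRSF12 1.18-fold and 1.15-fold lower. Array 1#, in which MIF was lower than in 2#, was the further array in 15 of the 23 lower members (65.2%), with medians of -0.23 in 1# and -0.29 in 2#. Among all lower genes it was further in 73.3%, with medians of -0.26 and -0.18. In the 7 higher members 1# was further in 6 (85.7%), with medians of 0.45 and 0.29. Among all higher genes it was further in 75.3%, with medians of 0.32 and 0.21.

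The wider splicing machinery was compared through lists chosen by function. Of all genes, 28.7% were lower in all 4 pairs and 32.7% higher. The core snRNP proteins, the Sm and particle-specific proteins bound to the spliceosomal RNAs, had 12 of 23 measured genes lower in all 4 pairs (52.2%) and 1 higher, with a median log2 difference of -0.12. SNRPD1, an Sm ring protein, had 330.6 and 341.5 in 1# and 2# against 453.6 and 434.6 in control RNA and untreated cells (-0.40 ± 0.09, adjusted p 0.0545). SNRPC and SNRPB2, components of the U1 and U2 particles, differed by -0.45 and -0.36. A list of other spliceosome proteins, named the catalytic list here, had 16 of 27 lower (59.3%) and 5 higher (median -0.12). Under median scaling 12 were lower (44.4%) and 6 higher (22.2%), with a median of -0.03. In that setting 17.4% of all genes were lower and 46.8% higher, with a median of 0.09. Not all genes of that list belong to the catalytic spliceosome, PHF5A and PRPF6 among them. PHF5A, which is the further subunit of SF3B, had 470.6 and 613.9 against 991.2 and 787.7 (-0.72 ± 0.17, adjusted p 0.0596), whereas PRPF8, the scaffold of the catalytic centre, had 6519 and 6303 against 4665 and 5109 (0.39 ± 0.09, adjusted p 0.0603). The tri-snRNP protein gene PRPF6 differed by -0.43.

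The lists of regulators outside the core machinery follow. Of the hnRNP-like genes under other names, 3 of 18 were lower and 8 higher (median 0.03). These were 16.7% and 44.4%, against 28.7% and 32.7% of all genes. Under median scaling the shares were 16.7% and 38.9%, against 17.4% and 46.8% of all genes, so the excess of higher genes was not kept. TARDBP, which binds UG repeats, had 315.5 and 350.9 against 413.7 and 473.3, and RALY and RBMX were higher by 0.28 and 0.36. In the list of other splicing regulators 12 of 34 were lower (35.3%) and 6 higher (17.6%), with a median of 0.00. Under median scaling 7 were lower and 16 higher, shares (20.6% and 47.1%) near those of all genes in that setting (17.4% and 46.8%). One of these genes passed the test: SRRM2, a large SR-related scaffold of nuclear speckles, rose, with 6485 and 6319 against 3926 and 4527 (0.60 ± 0.10, adjusted p 0.0499 in limma). That call was lost without control RNA (adjusted p 0.38) and without untreated cells (0.252). MBNL2 and CELF1, antagonists in muscle splicing, differed by -0.46 and -0.42. With the mean of all probes MBNL2 and CELF1 differed by only -0.21 and -0.20, and RALY by 0.10, while RBMX stayed at 0.36.

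The list of SR protein kinases and the SR importer had 0 of 8 genes lower and 4 higher (median 0.11). These were 0% and 50%, against 28.7% and 32.7% of all genes. Under median scaling 62.5% were higher, against 46.8% of all genes. DYRK1A, a kinase of splicing factors, had 796.2 and 703.6 in 1# and 2#, against 515.1 (control RNA) and 546.8 (untreated) (0.50 ± 0.10, adjusted p 0.053). SRPK2, an SR protein kinase of the cytoplasm, had 193.1 and 168.6 against 152.8 and 125.4. CLK4, a nuclear one, had 87.9 and 86.4 against 75.9 and 77.2. With the mean of all probes DYRK1A differed by only 0.08 and SRPK2 by 0.06 (0.38 with its brightest probe), while CLK4 stayed at 0.19. The nonsense-mediated decay factors, which remove transcripts with early stop codons, had 1 of 7 lower (14.3%) and 5 higher (71.4%), with a median of 0.28. Under median scaling 85.7% of them were higher. The kinase gene SMG1 had 694.5 and 694.9 against 566.0 and 522.2 (0.35 ± 0.09, adjusted p 0.0665), and SMG5 and SMG9 differed by 0.31 and 0.33. Apart from SRRM2, 0 genes of these lists passed in limma, where 2.49% of all genes did. At an unadjusted p under 0.05 in limma, 12.7% of all genes were lower and 17.1% higher. By that rule the core snRNP list had 8 lower and 0 higher genes, and the catalytic list 5 and 4. The hnRNP-like and regulator lists had 2 and 3 each, the kinases 0 and 2 and the decay factors 0 and 4.

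**Figure D3:**
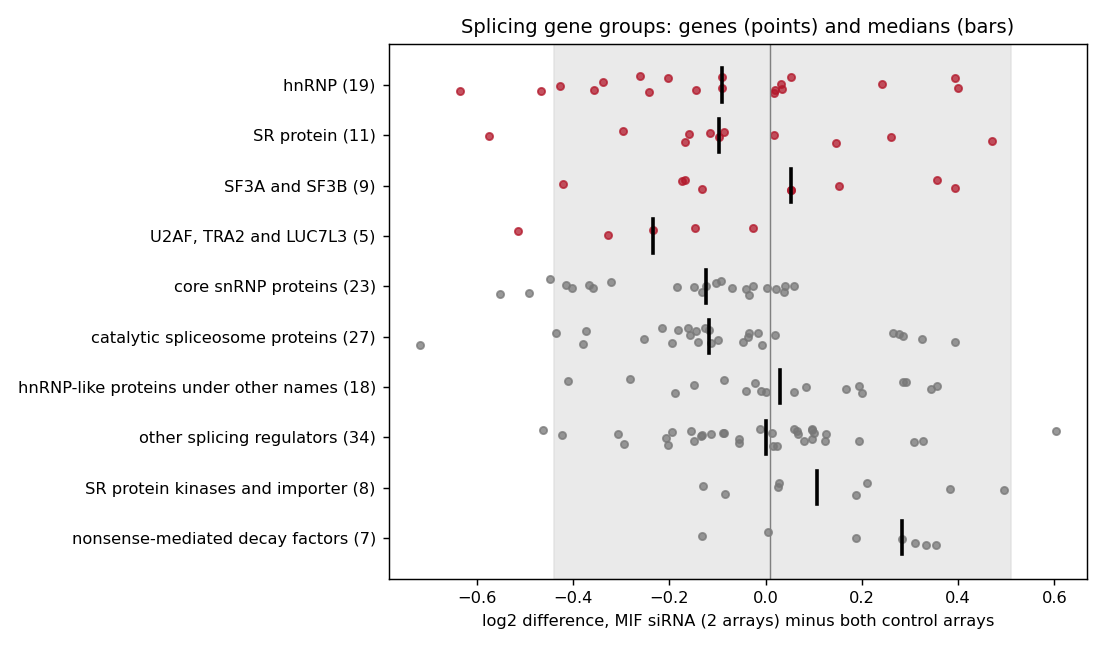
Log2 difference of MIF siRNA minus both control arrays for each gene above the filter (points) with the group median (bars); the set described here is in red, other splicing lists are grey, the number of genes is in brackets, and the shaded band runs from percentile 5 to 95 of all genes (-0.44 to 0.51). The core snRNP and catalytic lists have medians of -0.12 and the decay factors 0.28.

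The excess of lower over higher members was present in all 12 alternatives. When arrays were scaled only by their medians, 18 members were lower in all 4 pairs and 10 higher, against 17.4% and 46.8% of all genes, and the share of limma calls that were higher was 86.3% in place of 59.1%. That setting called 3 members, HNRNPM and SF3B5 lower and HNRNPU higher, and 11.5% of all genes. HNRNPM and TRA2B were also called without the filter (3 members, 3.14% of all genes), with the filter at percentile 75 (4 members, 10.3%) and with an intensity trend in the variance (4 members, 7.42%). HNRNPH3 was called without the filter and with the filter at percentile 75. As shares of the members measured, these calls were 6.82%, 6.52%, 9.76% and 9.09% in that order of settings.

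**Figure D4:**
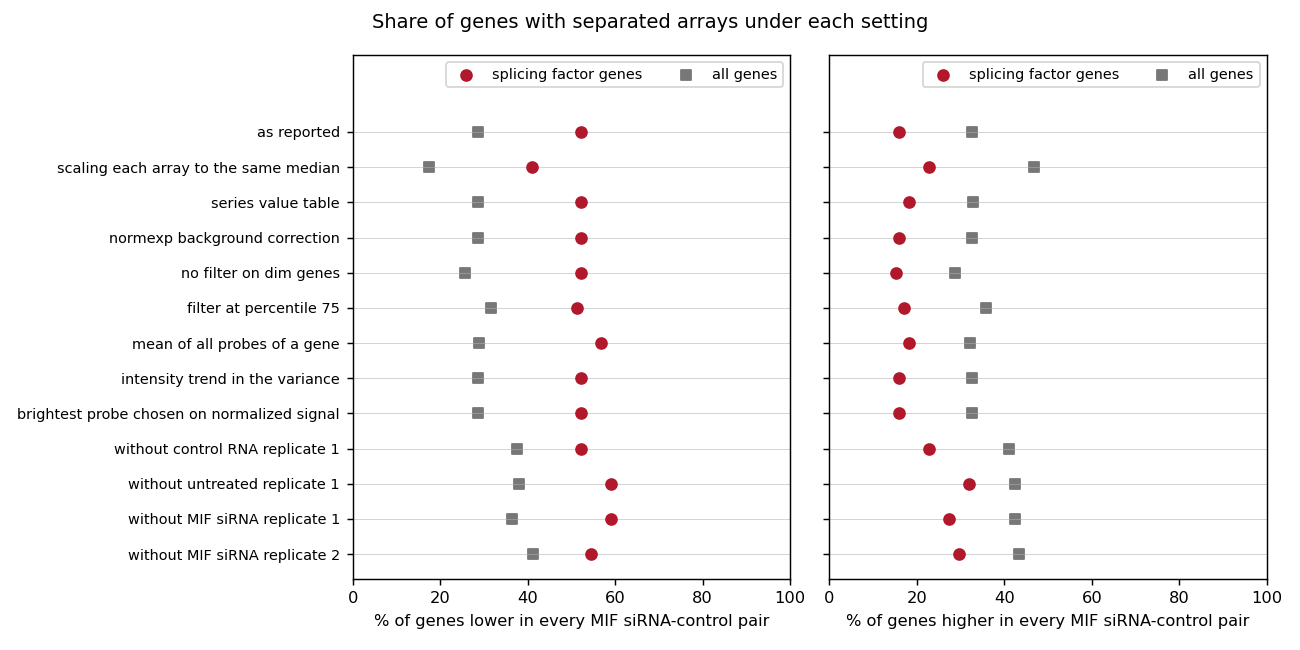
Percent of splicing factor genes (red circles) and of all genes (grey squares) in which every MIF siRNA array lay below (left) or above (right) every control array, for the reported setting and each alternative. Splicing factor genes lie to the right of all genes for lower and to the left for higher under every setting shown, with 52.3% against 28.7% lower as reported.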

How the data were processed

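Total RNA of 4 HEK293 samples was measured on single-colour Illumina arrays. The authors deposited a linear intensity for each of 48701 probes and each array, made with BeadStudio per the submitters' processing notes. Array medians of the deposited signal were 71.89 to 78.49 and the smallest value was 39.79, so no normalization or background subtraction was apparent; background left in makes folds of dim genes too small. The authors' series value table, also linear intensity, has a median of 73.84 in every column by a method not given in the sources used here. From row 19832 its identifiers stand 1 row off the sample tables, and it was matched by position. Genes came from the platform annotation (23687 probes with 1 gene, 35 with several, 24979 not listed), updated to RefSeq symbols through 23651 matching identifiers.

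Intensities were quantile-normalized, floored at 32 (0 values were below) and log2-transformed. Genes with a mean above 75.6 were tested (13755 of 18774), two-sided, with limma 3.58.1 in R 4.3.3 (lmFit, eBayes, Benjamini-Hochberg over all genes, threshold 0.05). The fit of 2 arrays against 2 has 2 residual degrees of freedom and counts the difference between control conditions as spread.

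MIF, the 8 higher and 8 lower members by smallest pair difference (7 qualified as higher), the 4 brightest, the 3 highest and lowest in each 1-array difference, members with disagreeing probes and up to 3 genes of each other list were to be named; the remaining members were added. Members and lists were chosen with earlier results of these data known. Alternatives were median scaling, the value table, normexp (offset 50), other filters, all probes, a variance trend and each array left out. The choice of probe on normalized signal was added after seeing the data and changed the probe of 14 genes.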

Additional observations from a re-analysis of the deposited data

How the results depend on the processing

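No paired analysis was possible because the control groups have 1 array each and share no number with 2#. The count of lower members stayed between 18 and 26 under all 12 alternatives, while the share of all genes that were lower ran from 17.4% to 41.2%. Scaling to the same median gave medians of -0.07 for members against both controls, -0.11 against control RNA, 0.06 for control RNA minus untreated and 0.03 for 1# minus 2#. All genes then had a median of 0.09 against both controls, in place of 0.01. The median of members minus that of all genes was -0.16, in place of -0.11. Members called in limma numbered 3 under that scaling, 3 without the filter, 4 with the filter at percentile 75 and 4 with the variance trend, while all genes called numbered 1580, 590, 947 and 1021. The series value table, normexp, the mean of all probes and the probe chosen on normalized signal gave 0 calls. Leaving out 1 array at a time gave 0 to 17 called members, 0 to 4634 called genes, 10 to 14 higher members, 0 to 2 members 1.5-fold apart, and medians of -0.12 to -0.10 against both controls and -0.10 to -0.08 against control RNA. With 1 array left out, 41.1% to 43.3% of all genes were higher, and no share of all genes at 1.5-fold is given. At a log2 gap of 0.32, the lower fold rule, 5 members were apart with all 4 arrays (background 3.44% lower and 4.94% higher). Under median scaling HNRNPAB turned to -0.07, HNRNPD to -0.07, HNRNPR to -0.04, HNRNPF to 0.11 and LUC7L3 to 0.13, and with the mean of all probes HNRNPAB turned to -0.16 and SF3B1 to -0.06. Over left-out arrays HNRNPAB ranged from -0.06 to 0.14, U2AF1 from -0.36 to 0.06, LUC7L3 from -0.32 to 0.27, SRSF5 from -0.03 to 0.32, SF3A3 from -0.37 to 0.03, HNRNPA1 from -0.30 to 0.01, HNRNPR from -0.02 to 0.09, HNRNPUL1 from -0.03 to 0.06, SF3B1 from -0.05 to 0.16, SRSF7 from -0.09 to 0.13 and HNRNPD from 0.00 to 0.04. Of 63 genes followed through the 12 alternatives, these 12 changed direction in at least 1. Sizes also moved without a change of direction. Under median scaling HNRNPH3 moved to -0.23, SF3A1 to -0.02, and HNRNPL and SRSF8 to -0.01. HNRNPM moved the other way to -0.57, SF3B5 to -0.48 and HNRNPU to 0.59. SRRM2 lost its call with the value table (adjusted p 0.0502), normexp (0.0536), the mean of probes (0.054), the probe on normalized signal (0.0501) and without either control array (0.38 and 0.252). The cause was not tested. Among measured members HNRNPA1L2, SRSF11 and HNRNPLL had the signals closest to the filter, where the distance to background limits the fold.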
